A study of Mus musculus with 12 samples.

Results

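The genes described here are 10 genes of the ERK feedback circuit: Dusp4, Dusp5, Dusp6, Spry1, Spry2, Spry4, Spred1, Spred2, Etv4 and Etv5. They were listed by symbol, with no cut-off on their measured values in the rule, and all 10 were found among the 23337 gene symbols of the count table. All 10 passed the filter on low counts and belonged to the 12406 genes tested. The cells were NU1, a line of normal mouse urothelial cells that became immortal without an introduced gene, by passaging. The study asked how loss of Stag2, a subunit of the cohesin ring that folds and holds chromosomes, changes expression in dividing and in resting cells. The 12 libraries formed 4 groups of 3: proliferating cells with the hairpin shNT (prol shNT, genotype WT in the labels), proliferating cells with the hairpin sh4 (prol sh4, Stag2-KD), quiescent cells with shNT (d7 shNT) and quiescent cells with sh4 (d7 sh4). Both hairpins came by lentivirus, and sh4 is the only hairpin against Stag2 in these libraries. Every culture grew in a medium with serum and EGF, the ligand of the EGF receptor. Quiescent cultures were grown to confluence and then were given 0.5 µM erlotinib together with 1 µM rosiglitazone, and they were labelled day 7. The effects of confluence, of rosiglitazone (a PPAR gamma agonist) and of erlotinib (an inhibitor of the EGF receptor kinase) therefore cannot be told apart.

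Binding of EGF to its receptor activates RAS, which switches on the kinases RAF, MEK and ERK in turn. Active ERK induces genes that carry the signal forward and genes that restrain it, so the transcripts of the feedback genes are widely used as a readout of ERK activity. Dusp4 and Dusp5 encode phosphatases that dephosphorylate MAP kinases in the nucleus, with Dusp5 selective for ERK, and Dusp6 encodes an ERK-selective phosphatase of the cytoplasm. Sprouty proteins (Spry1, Spry2, Spry4) and Spred proteins (Spred1, Spred2) are membrane-associated inhibitors that act between receptors and RAF, the latter with neurofibromin, the product of Nf1. Etv4 and Etv5 are ETS family transcription factors of the PEA3 group that are induced by receptor tyrosine kinase signalling. Capicua, encoded by Cic, is a repressor that ERK signalling relieves, and Etv4, Etv5 and Dusp genes are known targets of it.

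Promoter sequences from RefSeq (build GRCm38.p6) were available for 7 of the 10 genes, with 8 windows in all because Etv5 had 2. Each window ran from 250 bases before to 50 bases after the annotated start, and was searched on both strands for 5 motifs. The sequences of Dusp6, Dusp5 and Spry2 are shown because they hold matches for 2 DNA-binding factors of this pathway, capicua and serum response factor. Capitals in the Dusp6 and Spry2 sequences mark capicua octamers (TGAATGAA, TGAATGGA, TCAATGAA or TCAATGGA, read on either strand), and capitals in the Dusp5 sequence mark CArG boxes, the sites of serum response factor. The Dusp6 sequence lies at chr10:99262981-99263250 on the plus strand and includes 20 bases after the start, the Dusp5 sequence at chr19:53528895-53529144 on the plus strand, and the Spry2 sequence at chr14:105896820-105897069 on the minus strand.
Dusp6: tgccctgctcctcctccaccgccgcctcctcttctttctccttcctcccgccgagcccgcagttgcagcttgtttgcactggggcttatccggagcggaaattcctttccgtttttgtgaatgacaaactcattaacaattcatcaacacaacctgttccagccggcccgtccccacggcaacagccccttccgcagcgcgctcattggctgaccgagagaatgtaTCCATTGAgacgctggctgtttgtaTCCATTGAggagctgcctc
Dusp5: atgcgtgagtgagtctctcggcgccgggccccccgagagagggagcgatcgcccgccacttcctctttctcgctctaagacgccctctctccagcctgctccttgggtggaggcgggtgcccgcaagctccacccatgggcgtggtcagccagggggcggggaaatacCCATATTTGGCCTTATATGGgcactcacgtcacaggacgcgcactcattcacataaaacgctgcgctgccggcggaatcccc
Spry2: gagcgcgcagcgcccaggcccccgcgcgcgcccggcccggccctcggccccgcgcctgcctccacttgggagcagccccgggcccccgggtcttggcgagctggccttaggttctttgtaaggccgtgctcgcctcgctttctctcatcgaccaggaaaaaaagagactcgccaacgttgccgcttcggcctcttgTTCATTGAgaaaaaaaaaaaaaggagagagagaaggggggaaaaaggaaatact

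Dusp6 held 2 copies of the octamer, at bases -24 to -17 and 2 to 9 counted from the start, where 1 is the first transcribed base. Spry2 held 1 octamer at -54 to -47. An octamer was present in 3.84% of the 32851 promoter windows of the table, and 2 or more in 0.183%. Dusp5 held 2 adjoining CArG boxes at -82 to -73 and -72 to -63, and 1.63% of all windows held such a box, with 2 or more in 0.0183%. The ETS motif was searched only in the form CCGGAA, which was found once, in Spry2 at bases 34 to 39, against 14.9% of all windows. Looser forms of it, such as GGAA alone, were not counted. The AP-1 motif (TGANTCA, with C or G at N, in 5.2% of windows) and the cyclic AMP response element (TGACGTCA, in 1.79%) had no match in the 8 windows. The windows of Spry1, Spred1, Spred2 and Etv5 held none of the 5 motifs. A match describes letters in the window and not binding, which was not measured.

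Library totals ran from 14524429 to 21987539 counts, and levels are given as CPM, the counts divided by the library total after TMM scaling and brought to a common size. Stag2 itself was lower with sh4 in each experiment, at 24.6 to 33.3 CPM in prol sh4 against 113 to 145 CPM in prol shNT, and at 9.43 to 15.3 CPM in d7 sh4 against 107 to 128 CPM in d7 shNT. Of 17 urothelial and epithelial markers, Krt8, Krt18, Krt7 and Krt20 were abundant in each library (534 CPM for Krt20 in the lowest to 9036 CPM for Krt8 in the highest). The basal keratins Krt5 and Krt14 were low, at 2.91 to 6.60 and 4.94 to 10.6 CPM in proliferating and at 0.414 to 2.58 and 0.183 to 1.46 CPM in quiescent libraries, and the uroplakins Upk1a, Upk1b, Upk2 and Upk3a did not exceed 3.94 CPM in any library, and Trp63 was listed at 0. Endothelial markers (6 of 6) and fibroblast and smooth muscle markers (10 of 11) stayed under 1 CPM, and so did 6 of 8 immune markers, with Cd3e at 0. The summed level of the 8 immune markers was 15.6 to 33.3 CPM in prol shNT, 26.3 to 55.4 CPM in prol sh4, 39.7 to 61.9 CPM in d7 shNT and 110.3 to 169.8 CPM in d7 sh4, most of it from Csf1r (up to 163 CPM), while the leukocyte gene Ptprc did not exceed 0.408 CPM. The part of these markers in the results below was not tested. In such bulk samples, fewer cells that express a gene and less RNA per cell cannot be told apart. The experiment number (5, 7 or 9) in the labels coincides with the batch and is shared by 1 library of each group. The labels do not say whether an experiment was a separate culture, so p-values measure the spread between these libraries, which may be technical.

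**Figure D1:**
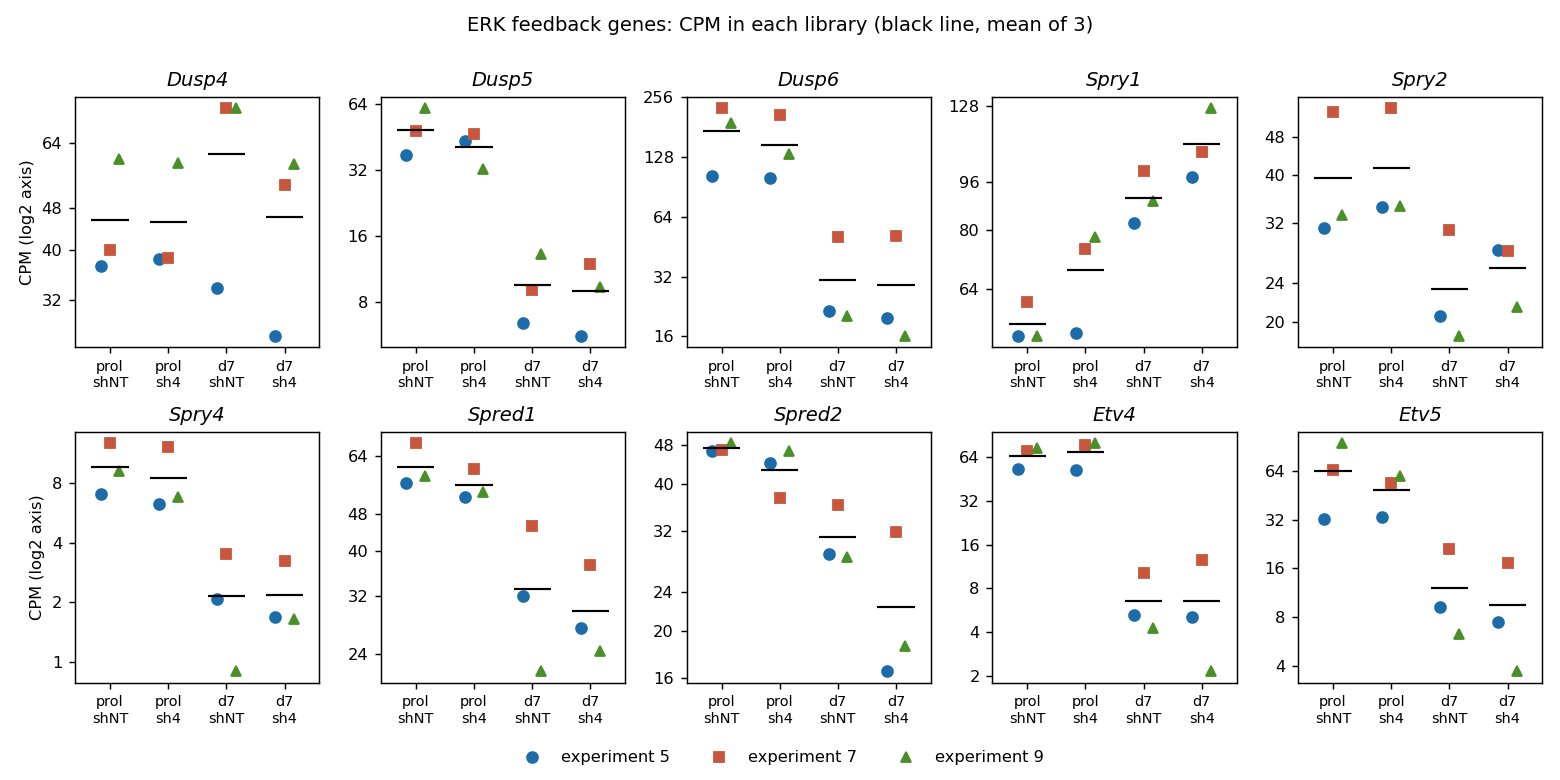
CPM of the 10 feedback genes in each of the 12 libraries, on log2 axes whose range differs between panels. The symbols are the 3 experiments and black lines are group means. Dusp5, Dusp6, Spry4, Spred1, Etv4 and Etv5 are lower in all 6 quiescent than in all 6 proliferating libraries. So are Spry2 and Spred2, by a narrow margin. Spry1 is higher, and Dusp4 overlaps. For this split of 6 against 6 libraries the share of all genes was not counted.

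The first comparison was between quiescent and proliferating control cells. In control cells, 6 of the 10 feedback genes fell (Dusp5, Dusp6, Spry4, Spred1, Etv4 and Etv5), Spry1 rose, and Dusp4, Spry2 and Spred2 did not pass the test. Calls were made at an edgeR adjusted p below 0.05, and by this rule 20.0% of all 12406 genes passed, 11.7% lower and 8.33% higher. The median log2 fold change was -1.52 over the 10 genes and 0.0047 over all genes tested. The 3 libraries of each state did not overlap for 9 of the 10 genes, against 35.6% of all genes (18.5% lower, 17.1% higher), and Dusp4 was the exception. With the experiment as a block, Spry2 and Spred2 also passed, so that 8 genes were lower and 1 was higher, where 35.3% of all genes passed, 18.5% lower and 16.8% higher. DESeq2 called 9 of the 10, against 26.0% of all genes.

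Both transcription factor genes fell, and Etv4 fell the most of the 10. Etv4 was at 52.2, 69.4 and 73.4 CPM in prol shNT of experiments 5, 7 and 9, and at 5.24, 10.2 and 4.29 CPM in d7 shNT. The highest quiescent library thus lay far under the lowest proliferating one. The change of Etv4 on the log2 scale was -3.31 (SE 0.52, edgeR adjusted p 0.00158), or 0.101 of the proliferating level. Etv5 was at 32.1, 65.1 and 94.5 CPM in prol shNT and at 9.17, 20.9 and 6.26 CPM in d7 shNT. Its proliferating libraries were the most spread of the 10 genes in CPM relative to their mean, and experiment 9 had both the highest proliferating and the lowest quiescent value. Its fitted change was -2.40 on that scale (SE 0.59, edgeR adjusted p 0.0164). The call was lost without experiment 5 (-2.56, edgeR adjusted p 0.0610), without experiment 9 (-1.68, edgeR adjusted p 0.124), and without any 1 of the libraries prol shNT of experiment 9 and d7 shNT of experiments 5 and 9 (-2.0, -2.23 and -2.08). Etv4 kept its call in every alternative that was run, with edgeR or DESeq2 adjusted p between 3.53e-10 and 0.0265.

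Among the phosphatase genes, Dusp5 and Dusp6 fell and Dusp4 did not. Dusp6, the most abundant of the 10 per kilobase in proliferating cells, was at 102 CPM in experiment 5, 226 CPM in experiment 7 and 189 CPM in experiment 9 in prol shNT. In d7 shNT it was at 21.6, 50.4 and 20.4 CPM. Experiment 7 was highest in each state and the states did not overlap. Dusp6 changed by -2.48 on the log2 scale (SE 0.52, edgeR adjusted p 0.00694), and without experiment 9 it was -2.18 (edgeR adjusted p 0.0903). Dusp5 was at 37.2, 48.1 and 61.3 CPM in prol shNT and at 6.42, 8.99 and 13.2 CPM in d7 shNT. Unlike Dusp6, its order over experiments was the same in both states, with experiment 5 lowest and experiment 9 highest. It changed by -2.36 on the log2 scale (SE 0.33, edgeR adjusted p 7.19e-04), and it too kept its call in every alternative, with adjusted p of at most 0.0347. Exons of Dusp5 overlap by up to 547 bases a gene model on the opposite strand, AC137853.2, that is no row of the count table. The use of strand in the counting is not given in the sources used here, so reads of the pair cannot be told apart.

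Dusp4 did not follow the other phosphatase genes. It was at 37.3, 39.9 and 59.6 CPM in prol shNT and at 33.9, 74.5 and 74.6 CPM in d7 shNT. Experiments 7 and 9 were higher in the quiescent state and experiment 5 was slightly lower. The fitted difference was 0.42 on the log2 scale (SE 0.35, edgeR adjusted p 0.423), with a 95% interval from -0.34 to 1.19. A fall of the size seen for Dusp5 and Dusp6 lies outside that interval.

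The Sprouty genes went in different directions. Spry4 was low throughout, at 7.01, 12.7 and 9.20 CPM in prol shNT and 2.07, 3.49 and 0.894 CPM in d7 shNT, the last from 15 counts. Spry4 changed by -2.16 on the log2 scale (SE 0.48, edgeR adjusted p 0.0102). The call was lost without experiment 5 (-2.32, edgeR adjusted p 0.0582) and without experiment 9 (-1.81, edgeR adjusted p 0.0812). Spry2 was at 31.2, 54.0 and 33.2 CPM in prol shNT and at 20.6, 30.9 and 18.7 CPM in d7 shNT. Its states did not overlap, by a narrow margin, since the highest quiescent library almost reached the lowest proliferating one. Its fitted difference was -0.75 on the log2 scale (SE 0.27), with an edgeR adjusted p of 0.0733 that became 0.00319 with the experiment as a block.

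Spry1 was the only one of the 10 genes to pass the test upwards. It was at 53.6, 60.9 and 53.6 CPM in prol shNT and at 82.2, 100.1 and 89.2 CPM in d7 shNT. The states were well apart and the experiments lay close together. The change was 0.69 on the log2 scale (SE 0.15, edgeR adjusted p 0.0100), a rise to 1.62 times the proliferating level. Without experiment 7 (0.67) or experiment 9 (0.68) it did not pass (edgeR adjusted p 0.132 and 0.0810). Exons of Spry1 overlap by up to 577 bases the gene model Gm42922 on the opposite strand, which is no row of the count table either.

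Of the Spred genes, Spred1 fell and Spred2 did not pass the test. Spred1 was at 55.7, 68.0 and 57.9 CPM in prol shNT and at 31.9, 45.2 and 22 CPM in d7 shNT. It changed by -0.87 on the log2 scale (SE 0.23, edgeR adjusted p 0.0236). Of the 6 falls this call was lost most often, in 7 of 21 alternatives: with only control libraries (edgeR adjusted p 0.0593), without prol shNT of experiment 7 or 9 (0.0863 and 0.0514), without d7 shNT of experiment 5 or 9 (0.0769 and 0.0672), and without experiment 5 or 9 (0.119 and 0.135). Spred2 was at 46.8, 47.0 and 48.5 CPM in prol shNT, the tightest group of any of the 10 genes, and at 28.8, 36.2 and 28.3 CPM in d7 shNT. Its fitted difference was -0.61 on the log2 scale (SE 0.22), with an edgeR adjusted p of 0.0698 that became 0.0339 with the block.

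**Figure D2:**
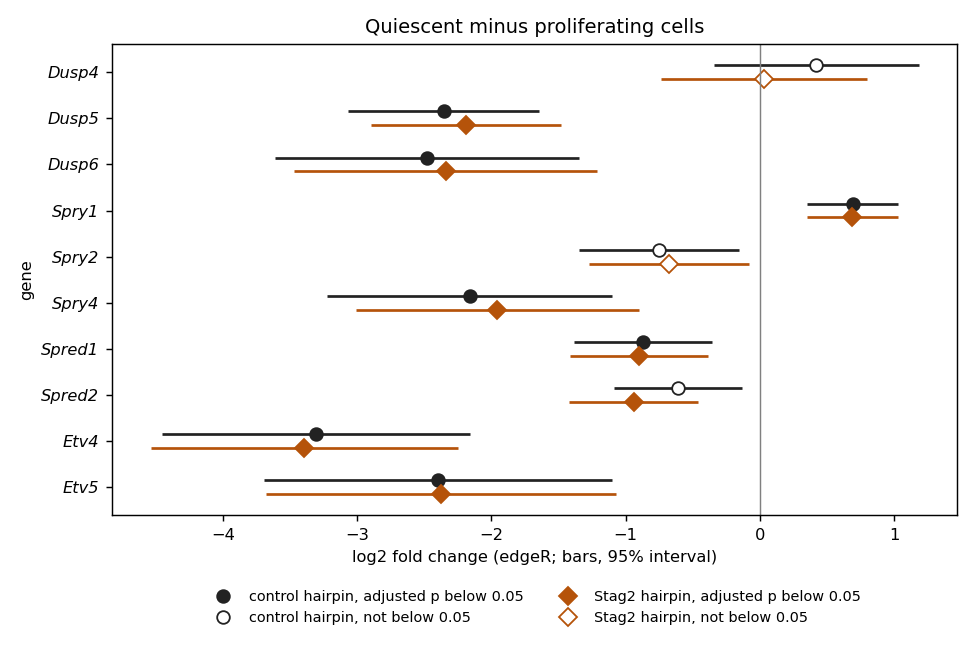
Log2 fold change of each feedback gene between quiescent and proliferating cells (horizontal axis) with its 95% interval, for control cells (circles) and Stag2 knockdown cells (diamonds). Filled symbols passed an edgeR adjusted p of 0.05. Values run from -3.31 for Etv4 to 0.69 for Spry1 in control cells, and each pair of intervals overlaps.

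In Stag2 knockdown cells 7 of the 10 genes fell with quiescence and Spry1 rose, while Dusp4 and Spry2 did not pass the test. Among all genes 18.4% passed by the same rule, 10.8% lower and 7.59% higher. The libraries of the states did not overlap for 9 of the 10 genes, against 37.2% of all genes (19.1% lower, 18.1% higher). With the block 9 passed, against 33.0% of all genes (17.2% lower, 15.9% higher), and DESeq2 called 8, against 24.2%. The median log2 fold change was -1.45 over the 10 genes. Spred2 passed here (log2 fold change -0.94, SE 0.22, edgeR adjusted p 0.0132), and its interaction with the knockdown is given below. In d7 sh4 Etv4 was at 5.08, 12.6 and 2.17 CPM, against 51.9, 77.1 and 78.8 CPM in prol sh4, which is -3.39 on the log2 scale (SE 0.52, edgeR adjusted p 0.00176). Dusp6 was at 19.8, 51.1 and 16.1 CPM in d7 sh4, against 101, 207 and 132 CPM in prol sh4, which is -2.34 on the log2 scale (SE 0.51, edgeR adjusted p 0.00988). As in control cells, no quiescent library of either gene reached a proliferating one. In experiment 9 the knockdown minus control difference of Etv4 on the log2 scale was 0.10 in proliferating and -0.95 in quiescent cells. That of Dusp6 was -0.51 and -0.34. Of the 10 genes, 7 had a negative difference in proliferating cells of experiment 9 and 6 in quiescent cells. Etv5, Dusp5, Spry4 and Spred1 had log2 fold changes of -2.38, -2.19, -1.95 and -0.90. Without d7 sh4 of experiment 9 the calls of Etv5, Spry1, Spry4, Spred1 and Spred2 were lost, and without d7 sh4 of experiment 5 those of Etv5, Spry4, Spred1 and Spred2. Without prol sh4 of experiment 7 the calls of Etv5, Spry4 and Spred1 were lost, and without prol sh4 of experiment 9 that of Etv5. Spry1 rose by 0.69 (SE 0.15, edgeR adjusted p 0.0110). Spry2 had -0.68, with an edgeR adjusted p of 0.107 that became 0.00749 with the block.

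**Figure D3:**
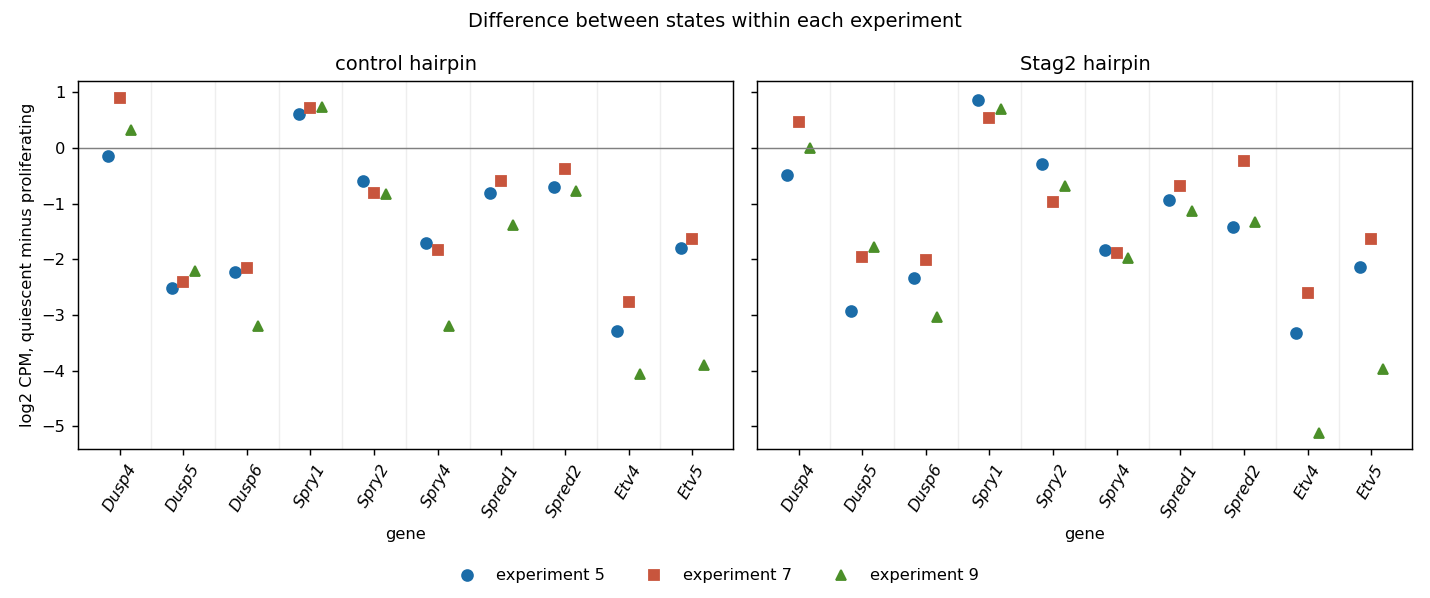
Difference in log2 CPM between the quiescent and the proliferating library of the same experiment (vertical axis) for each feedback gene, in control cells on the left and Stag2 knockdown cells on the right. In both panels 9 of the 10 genes have the same sign in all 3 experiments, and Dusp4 does not. Agreement in sign was not counted over all genes.

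The size of the difference between states varied between experiments. In control cells the difference was most negative in experiment 9 for 7 of the 10 genes and in experiment 5 for 3, and in knockdown cells these numbers were 5 and 3. These counts include genes that did not fall. The 3 genes of experiment 5 in control cells were Dusp5, Dusp4 (not called) and Spry1, whose rise was smallest there (0.61). Such counts were not made over all genes. Etv5 differed by -1.79, -1.63 and -3.89 in experiments 5, 7 and 9 in control cells, and by -2.14, -1.64 and -3.98 in knockdown cells. Etv4 differed by -3.29, -2.76 and -4.06 in control cells, and by -3.32, -2.61 and -5.11 in knockdown cells. Dusp5 did not share this pattern, with -2.52, -2.41 and -2.21 in control cells. The medians over the 10 genes in experiments 5, 7 and 9 were -1.25, -1.22 and -1.80 in control cells and -1.63, -1.31 and -1.55 in knockdown cells, so the lowest median was that of experiment 9 in the former and of experiment 5 in the latter. With experiment 9 left out, only Dusp5 and Etv4 passed the edgeR threshold, in control and in knockdown cells, and 892 and 736 genes did so in the whole table.

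Levels were compared between genes per kilobase of exon, using the union of exons in GENCODE M21 (build GRCm38). In prol shNT Dusp6 was highest at 54.9 CPM per kb ± 20.2 (SD, n = 3), and its 3 libraries lay above those of every other member. Etv4 (20.9 ± 3.63, SD, n = 3), Dusp5, Spry1, Spry2, Dusp4, Etv5 and Spred2 (10.3 ± 0.192, SD, n = 3) followed, and each of these overlapped the next. Spred1 had 8.93 ± 0.961 and Spry4 2.03 ± 0.603 CPM per kb (SD, n = 3), each under the gene before it in all libraries. In d7 shNT the order was different. Spry1 was highest at 31.1 CPM per kb ± 3.11 (SD, n = 3), followed without overlap by Dusp4 at 22.3 ± 8.57 and then by Spry2 at 11.2 ± 3.14 (SD, n = 3), which overlapped Dusp4 and Dusp6. Dusp6 was the fourth at 9.83 ± 5.43, while Etv4 went from the second place to the ninth at 2.11 ± 1.01 CPM per kb (SD, n = 3). With the length of the longest transcript in place of the exon union, Etv4 had 27.2 CPM per kb in prol shNT and kept the second place.

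The profiles of the 10 genes over the 12 libraries were compared by the root mean square difference of their centred log2 CPM. The smallest difference between members was 0.268, between Spry2 and Spred1, and Spred2 was almost as near to Spred1, at 0.269. Dusp6 was nearest to Etv5 (0.319), and Spry4 was nearest to Dusp6 (0.368). Dusp4 and Spry1 were each other's nearest, at 0.509, and Etv4 and Spry1 were farthest apart, at 2.20. Outside the list, Morc4 (0.357) and E330016A19Rik (0.365) were among the genes nearest to Dusp6, out of 10291 genes searched. Nearest to the mean profile of the 10 genes, which averages falling and rising members, were Bbs12 (0.200), Pcna (0.205), Pms2 (0.206), Asap2 (0.214) and Usp1 (0.224). This list depends on the measure: with 4 group means in place of 12 libraries, 0 of the 5 genes were the same.

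Other genes of the pathway were read from 4 lists for quiescence in control cells, where 11.7% of all genes fell and 8.33% rose. Among 10 relatives of the feedback genes, 9 were tested, 2 fell and 3 rose. Spry3 had 0 counts in every library, where 3 counts would be 0.207 CPM at the smallest total. The genes that fell were Dusp9 (15.8 CPM ± 9.02 to 1.98 ± 1.34, SD, n = 3, log2 fold change -2.99, edgeR adjusted p 0.00233) and Dusp7 (289 CPM ± 26.0 to 153 ± 10.8, SD, n = 3, log2 fold change -0.92, edgeR adjusted p 5.37e-04). Both encode cytoplasmic phosphatases of the same ERK-directed subgroup as Dusp6. The genes that rose were Dusp16 (log2 fold change 1.51, edgeR adjusted p 7.53e-04), Dusp1 (1.43, edgeR adjusted p 0.0422) and Dusp8 (0.89, edgeR adjusted p 0.0422). Dusp8 and Dusp16 encode phosphatases that prefer the stress-activated kinases JNK and p38, and Dusp1 encodes a nuclear phosphatase that acts on all 3 classes of MAP kinase. Etv1, the third PEA3 gene, was under 5 CPM in every library and differed by -2.33 on the log2 scale (edgeR adjusted p 0.0553, and 0.0214 under the block).

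Of the 21 genes of the cascade from receptor to ERK 3 fell and 1 rose, with a median log2 fold change of -0.04. In this contrast 20.0% of all genes passed, 11.7% lower and 8.33% higher. The adaptor Shc1 had -1.10, the RAF and MEK scaffold Ksr1 -1.01 and Nras -0.48 (edgeR adjusted p 0.00269, 0.00707 and 0.00570), and the docking protein gene Gab1 had 1.22 (edgeR adjusted p 0.00835). Egfr itself was at 160 CPM ± 25.4 in prol shNT and 186 ± 23.9 in d7 shNT (SD, n = 3), a difference of 0.22 on the log2 scale (edgeR adjusted p 0.451). Among other brakes on the pathway 16 of 17 were tested, 1 fell and 2 rose, against the same 20.0% of all genes. Socs3, a brake on cytokine receptors, had -1.38 (edgeR adjusted p 0.00125), the capicua gene Cic 0.57 (edgeR adjusted p 0.00554) and Dab2ip, a RAS GTPase activator, 0.48 (edgeR adjusted p 0.0115). Among 19 other ERK output genes 8 fell and 0 rose, against 11.7% and 8.33% of all genes, with a median of -0.71. The largest falls were in Fosl1 (-3.53, edgeR adjusted p 0.00126), a component of AP-1, in the membrane protein gene Emp1 (-2.21, edgeR adjusted p 0.00363), in the cyclin D gene Ccnd1 (-1.80, edgeR adjusted p 4.27e-04) and in the EGF receptor ligand gene Areg (-1.22, edgeR adjusted p 0.0264). Whether the lists differ from each other was not tested.

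**Figure D4:**
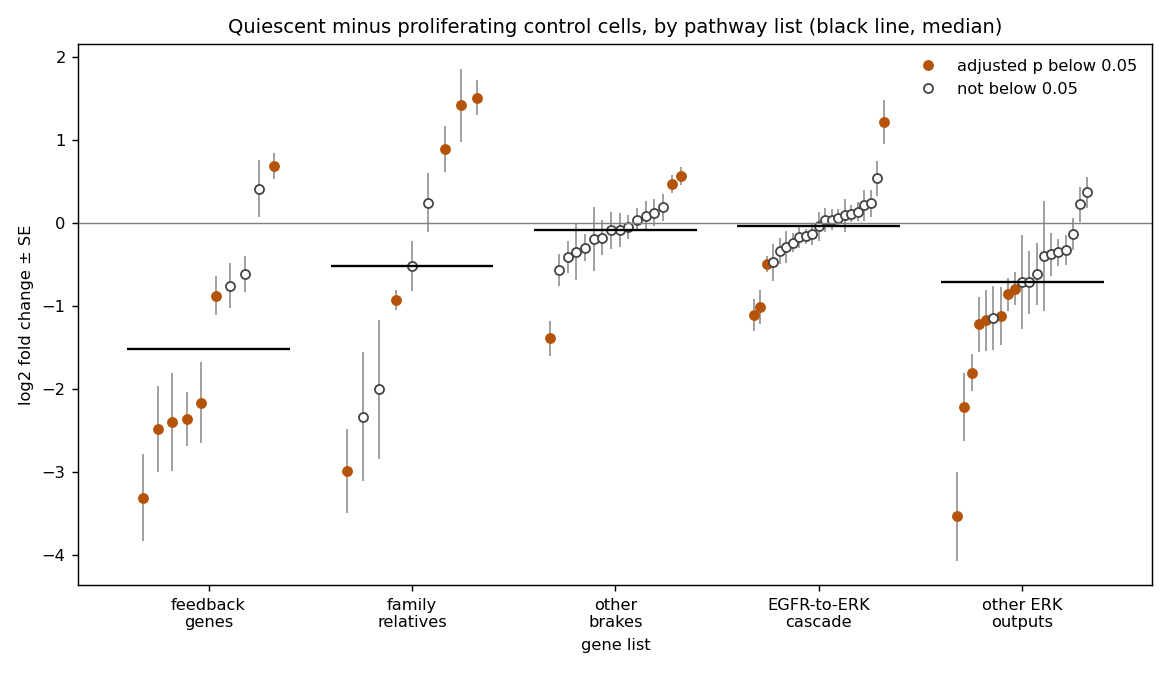
Log2 fold change with its SE (vertical axis) of every tested gene in the feedback list and 4 other pathway lists, between quiescent and proliferating control cells. Filled points passed an edgeR adjusted p of 0.05 and black lines are list medians, which are -1.52 for the feedback genes, -0.04 for the cascade and -0.71 for the other ERK outputs.

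The second comparison asked what the Stag2 hairpin did to these genes within each state. None of the 10 passed the edgeR test after knockdown in proliferating cells or in quiescent cells, against 0.0242% of all genes in proliferating and 0.435% (0.282% lower, 0.153% higher) in quiescent cells. With the block it was also 0 in each state, against 0.0242% and 3.55% (1.96% lower, 1.59% higher). The DESeq2 Wald test called 0 in each state, against 0.0970% and 3.13%. Unadjusted p-values below 0.05 were found for 0 of the 10 in proliferating cells and for Spred2 in quiescent cells, against 1.84% and 12% of all genes. With the block they were found for Spry1 in proliferating and for Spry1 and Spred2 in quiescent cells, against 5.2% and 20.4% of all genes, so the members' counts in quiescent cells are near the background. The median log2 fold change over the 10 genes was -0.14 in proliferating and -0.09 in quiescent cells, against -0.0022 and 0.016 over all genes.

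The intervals show what these libraries could leave unseen. Dusp6 had a log2 fold change of -0.23 in proliferating cells, with a 95% interval from -1.30 to 0.83, and of -0.09 in quiescent cells, from -1.18 to 0.999. Etv4 had 0.09 (-0.93 to 1.11) and 0.0025 (-1.11 to 1.12), and Etv5 had -0.39 (-1.60 to 0.83) and -0.36 (-1.64 to 0.91). In this fit a change by a factor of 2, which is 1 on the log2 scale, lay within the interval in at least 1 direction in each state for these 3 genes. With the experiment as a block the intervals were narrower: Dusp6 had -0.73 to 0.24 in proliferating and -0.63 to 0.39 in quiescent cells, and Etv4 had -0.68 to 0.84 and -0.94 to 0.84, none of which reached 1 in either direction. That of Etv5 still did, at -1.33 to 0.60 and -1.41 to 0.69. Without the block, the intervals of Spry1 were from -0.04 to 0.64 in proliferating and from -0.04 to 0.63 in quiescent cells. With it they were from 0.024 to 0.54 and from 0.034 to 0.55, above 0 in both states. The edgeR adjusted p of Spry1 with the block was 0.948 and 0.189. Spred1 had -0.13 (-0.64 to 0.38) and -0.16 (-0.67 to 0.36) without the block, and -0.46 to 0.21 and -0.48 to 0.20 with it.

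Spry1 and Spred2 were the genes with the same sign in all 3 experiments of both states. With plain library totals in place of TMM this held for Spry1 but not for Spred2, whose difference in experiment 9 of proliferating cells went from -0.05 to 0.01. The share of all genes with such agreement in sign was not counted. Spry1 was at 54.2, 74.4 and 78.1 CPM in prol sh4 and at 98.0, 108 and 127 CPM in d7 sh4. Each value was above the control library of its experiment, by 0.015, 0.29 and 0.54 on the log2 scale in proliferating and by 0.25, 0.10 and 0.51 in quiescent cells. The fitted values of Spry1 were 0.30 (SE 0.15) in proliferating and 0.29 (SE 0.15) in quiescent cells, with edgeR adjusted p of 0.9998 and 0.497. Spred2 was at 44.2, 37.4 and 46.7 CPM in prol sh4, all under the 46.8 CPM of the lowest control library. It was the only member whose control and knockdown groups did not overlap in proliferating cells, against 5.31% of all genes (2.65% lower, 2.66% higher). The margin was narrow, and with plain library totals the groups overlapped (44.6 to 47.5 CPM in prol shNT, 36.0 to 47.8 CPM in prol sh4). In quiescent cells 0 of the 10 were apart, against 19.1% of all genes (8.85% lower, 10.2% higher). In d7 sh4 Spred2 was at 16.5, 31.9 and 18.6 CPM, which overlapped the controls. Its fitted values were -0.15 (SE 0.22) for the proliferating and -0.48 (SE 0.22) for the quiescent state, with edgeR adjusted p of 0.9998 and 0.414 (unadjusted 0.0491 for the latter).

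Experiments disagreed in sign for other members. Dusp5 differed by 0.21, -0.04 and -0.92 in experiments 5, 7 and 9 in proliferating cells, and by -0.20, 0.40 and -0.49 in quiescent cells. Spry4 differed by -0.29, -0.11 and 0.80 in quiescent cells, where it had between 15 and 57 counts a library. Dusp4 was lower in d7 sh4 than in d7 shNT in each experiment, at 27.4, 53.1 and 58.3 CPM, by -0.31, -0.49 and -0.36, but the fitted change of -0.40 (SE 0.35) had an edgeR adjusted p of 0.730.

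**Figure D5:**
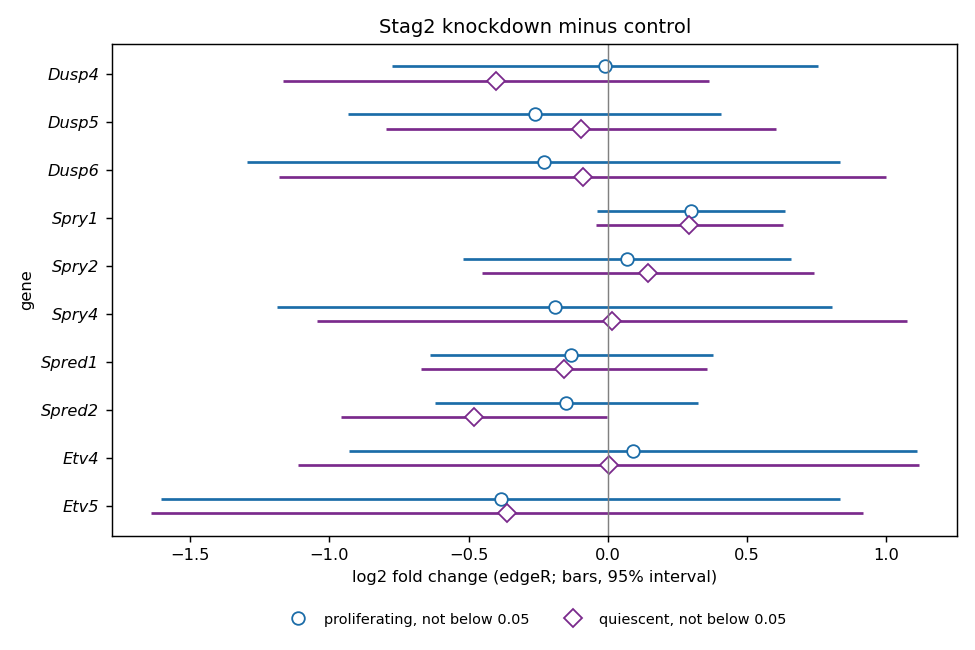
Log2 fold change of each feedback gene between Stag2 knockdown and control cells (horizontal axis) with its 95% interval, in proliferating (circles) and quiescent cells (diamonds). No gene passed an edgeR adjusted p of 0.05, and 19 of the 20 intervals include 0; that of Spred2 in quiescent cells ends at -0.0022.

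Whether the hairpin acted differently in the 2 states was tested for each gene as an interaction, the quiescent minus the proliferating difference. It ran from -0.39 (SE 0.49) in Dusp4 to 0.21 (SE 0.66) in Spry4, and 0 of the 10 genes passed the edgeR test, as did 0.00% of all genes. Unadjusted p-values below 0.05 were found for 0 of the 10, without and with the block, against 1.77% and 4.76% of all genes, and DESeq2 called 0 of the 10, against 0.0485% of all genes. For Spred2, which fell past the threshold with quiescence in knockdown and not in control cells, the interaction was -0.33 (SE 0.31, 95% interval -1.0 to 0.34, edgeR adjusted p 0.9997). The difference between those 2 calls is therefore not shown to be a difference between the cells. With the experiment as a block, Spred2 passed in control and in knockdown cells.

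In the pathway lists, the knockdown in proliferating cells called 0 genes of any list by edgeR, against 0.0242% of all genes. In quiescent cells it called 1, the ligand gene Areg, among the 19 other ERK output genes, against 0.435% of all genes. Areg was at 27.8 CPM ± 6.24 in d7 shNT and 6.82 ± 2.46 in d7 sh4 (SD, n = 3), which is -2.03 on the log2 scale (SE 0.35, edgeR adjusted p 0.0360). With the block 3 more genes passed in quiescent cells, all lower: Egfr (-0.85, edgeR adjusted p 0.0326), Pea15a (-0.72, edgeR adjusted p 0.0263) and Emp1 (-0.97, edgeR adjusted p 0.0128). Among all genes 3.55% passed with the block, 1.96% lower and 1.59% higher. Whether the lists differ from all genes was not tested. Pea15a encodes a protein that holds ERK in the cytoplasm.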

How the data were processed

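RNA was sequenced from 12 NU1 libraries, prepared from the polyA fraction with a dUTP strand-marking kit, per the labels' protocols. The authors deposited raw counts per gene symbol and library. The submitters' processing notes name Bowtie, TopHat, HTSeq and DESeq2 without versions and the build mm10, and annotation and strand setting are not given in the sources used here. Totals of 14524429 to 21987539 counts set the precision, and PCR copies of a molecule were counted as separate reads. No replicate pair was identical. Genes were kept by filterByExpr (minimum count 10, 12406 genes), scaled by TMM and fitted in edgeR 4.0.16 under R 4.3.3 with 4 group means over 12 libraries. P-values of glmQLFTest were adjusted by Benjamini-Hochberg over all tested genes, and a prior count of 2 was added for log2 CPM. Experiment numbers mark a shared batch in the labels, and deviations from group means correlated at 0.225 to 0.789 over 18 same-number pairs, so a fit with the experiment as a block was run. The procedure was tested on simulated data. The simulated libraries shared no effect of the experiment, so that test does not bear on such an effect. Named genes are the members, Stag2, the genes nearest in profile (mean log2 CPM of at least 2), and up to 4 called genes each way per pathway list, with genes named from calls under the block, and Egfr, Etv1 and single markers, chosen after their values were seen. The members and lists were chosen with earlier results of these data known. The list symbols Hras and Adgre1 were matched by the older symbols Hras1 and Emr1. Alternatives were the block, RLE size factors, DESeq2 1.42.0, no filter or a mean count of 50, only the contrast's libraries, and leaving out each library or experiment.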

Additional observations from a re-analysis of the deposited data

How the results depend on the processing

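The number of feedback genes called with quiescence was 7 in control and 8 in knockdown cells. It was 9 and 9 with the replicate block, and 9 and 8 with DESeq2, which called 3219 and 2990 of all genes, against 2481 and 2279 with edgeR and 4374 and 4096 with the block. Leaving out libraries or experiments gave 2 to 8 in control and 2 to 8 in knockdown cells. The count fell by over 1.5 times without experiment 5 (4 and 4) and without experiment 9 (2 and 2), and in knockdown cells also without d7 sh4 of experiment 5 (4), d7 sh4 of experiment 9 (3) or prol sh4 of experiment 7 (5). Fewer of all genes were called in these settings too: 1953 and 1629 without experiment 5, and 892 and 736 without experiment 9. In knockdown cells the single-library settings gave 1366, 1186 and 1333 of all genes, in the same order. Calls over all genes fell to 592 in control and 701 in knockdown cells without experiment 7, and to 1582 in control cells when only the libraries compared were fitted. In quiescence contrasts no called gene changed sign in any alternative, and Dusp5 and Etv4 kept their calls in all 21. After knockdown and for the interaction, the count of feedback genes was 0 in every alternative. All genes called after knockdown in quiescent cells numbered 54, or 440 with the block, 387 with DESeq2, between 1 and 2 without an experiment and between 5 and 64 without a single library. In proliferating cells they numbered 3, 12 with DESeq2 and 0 when any 1 experiment was left out. Uncalled signs changed with single settings, most for the interaction, in 49 gene-wise fits that left out libraries against 101 that kept the sign. Depth limits Spry4 most, with 15 counts in its lowest library.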

Other observations

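Before quiescence, the experiments already differed in the level of the feedback genes. In prol shNT, experiment 5 was the lowest of the 3 for 9 of the 10 genes, and in prol sh4 for 8 of 10, while it was the highest for 0 in both groups. Etv5 in prol shNT was at 32.1 CPM in experiment 5 against 94.5 CPM in experiment 9, and Dusp6 at 102 CPM against 226 CPM in experiment 7. In d7 shNT the order was different: experiment 7 was the highest for 8 of the 10 genes and experiment 9 the lowest for 7. In d7 sh4 these numbers were 7 and 6. These differences between experiments were not tested. The order of experiments was not counted over all genes, so it is not shown to be particular to the feedback genes.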
